A study of Mus musculus with 8 samples.

Results

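The genes described here are 10 genes of the disease-associated microglia programme, taken as a list of names by a rule that uses no measured value: Apoe, Spp1, Gpnmb, Cst7, Lpl, Itgax, Axl, Clec7a, Trem2 and Igf1. The list was nevertheless chosen with earlier results of these data known. All 10 genes were found among the 18473 genes kept from 8 Drop-seq libraries of mouse brain and glioma. In Drop-seq, each cell shares a droplet with a bead whose barcode tags its messenger RNA at the 3′ end, and molecules are counted as unique molecular identifiers (UMIs). The libraries came from C57BL/6 mice (C57BL/6N littermates by the methods) that were wild type (WT, Irg1/Acod1 +/+) or knock-out (KO, Irg1/Acod1 -/-) for Acod1, whose product makes itaconate in activated myeloid cells. Each genotype gave 1 naïve library and 1 tumour-bearing library each at the early (5 to 10 mm3), intermediate (20 to 25 mm3) and late (30 to 35 mm3) stage. The tumour-bearing mice of both genotypes had been implanted with 500 GL261 cells, a mouse glioma line, and the dissected tumour region was digested to single cells. A tumour-bearing library held 1 mouse and the labels of a naïve library name 2, so the spread between libraries is the only measure of error between animals. By the methods, the early WT mouse was female and the early KO mouse male, this was the other way round at the intermediate stage, and the late mice were male. Sex and genotype therefore cannot be told apart within the early or within the intermediate pair. Nor can sex and stage between the early and the late WT library, while the KO mice of these stages were both male. No sex is given in the methods for naïve mice. The KO allele is a cassette inserted in embryonic stem cells and so is not limited to myeloid cells. The labels give no age for the mice, and the study describes the genotypes as matched for age.

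Microglia are the resident macrophages of the brain, and in a tumour they share the tissue with macrophages that arise from blood monocytes. Around plaques, damaged myelin and tumours, microglia can enter a state in which they lower the genes of resting microglia and raise genes for lipid transport, engulfment and secreted factors. Trem2, a receptor for lipids and lipoproteins such as those carrying Apoe, is known to be needed for the full form of this state in models of Alzheimer disease. Most of the genes are not limited to microglia: Apoe is made by astrocytes, Spp1 by fibroblasts and many macrophages, and Cst7 by cytotoxic lymphocytes.

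By role, Apoe (chr7:19696109-19699188, minus strand, GRCm38) encodes a lipoprotein that carries cholesterol, and Lpl (chr8:68880491-68907448, plus strand) an enzyme that releases fatty acids from lipoproteins. Spp1 (chr5:104435118-104441050, plus strand) encodes the secreted matrix protein osteopontin, which binds integrins and CD44, and Igf1 (chr10:87858265-87937042, plus strand) a secreted growth factor. Cst7 (chr2:150570415-150578944, plus strand) encodes cystatin F, an inhibitor of lysosomal cathepsins. The cell-surface receptors are Trem2 (chr17:48346401-48354147, plus strand), Clec7a (chr6:129461591-129472779, minus strand, typed as a polymorphic pseudogene in the annotation), which encodes the beta-glucan receptor dectin-1, Axl (chr7:25757273-25788705, minus strand), a receptor tyrosine kinase that takes up dying cells through Gas6, and Itgax (chr7:128129547-128150657, plus strand), the integrin chain CD11c. Gpnmb (chr6:49036546-49070929, plus strand) encodes a glycoprotein of lysosomes and the cell surface.

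The RefSeq promoter table of GRCm38 held 13 windows of 300 bases for 9 of the 10 genes. They were searched on both strands for TGANTCA, the letters bound by AP-1, and GAGGAAG, a form of the site of PU.1, the factor that macrophages and microglia depend on. Of the 13 windows, 5 held TGANTCA, beside 7.81% of 32851 promoters, and 4 held GAGGAAG, beside 13.6%. The E-box form CACGTG was in none of the 13 windows, beside 7.15% of all promoters. The form CATGTG was in none either, beside 14.2%, nor was the cyclic AMP response element TGACGTCA, beside 1.79%. The motifs do not overlap within a window. A match is a description of letters and not of binding. The windows of Apoe and Clec7a held none of these letters. Shown are windows chosen because they hold a match, those of Axl and Itgax left out, each from 150 bases before to 10 bases after the start site (Gpnmb, the first 30 bases), read along the strand of the gene, with the matched letters in capitals.
Spp1, chr5:104434961-104435120, plus strand: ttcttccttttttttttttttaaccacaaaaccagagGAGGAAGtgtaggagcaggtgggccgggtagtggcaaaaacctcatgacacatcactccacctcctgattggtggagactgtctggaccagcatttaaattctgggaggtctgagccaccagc
Gpnmb, chr6:49036518-49036547, plus strand: ggggcaagTGACTCAtgagcacgagttgtt
Cst7, chr2:150570265-150570424, plus strand: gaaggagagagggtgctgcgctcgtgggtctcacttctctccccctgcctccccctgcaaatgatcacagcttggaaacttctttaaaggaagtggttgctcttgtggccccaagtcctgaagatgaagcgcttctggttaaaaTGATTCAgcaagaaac
Trem2, chr17:48346251-48346410, plus strand: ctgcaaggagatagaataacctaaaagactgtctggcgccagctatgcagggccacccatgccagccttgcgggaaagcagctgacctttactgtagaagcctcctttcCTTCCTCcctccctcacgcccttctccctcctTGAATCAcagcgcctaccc
Igf1, chr10:87860961-87861120, plus strand: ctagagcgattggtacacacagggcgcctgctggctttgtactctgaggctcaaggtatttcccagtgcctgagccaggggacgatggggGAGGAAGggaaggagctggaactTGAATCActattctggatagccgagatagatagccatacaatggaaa
The capitals of Gpnmb and Cst7 are TGANTCA and those of Spp1 GAGGAAG. Trem2 and Igf1 held both motifs, and in Trem2 the GAGGAAG match reads as its reverse complement. The Cst7 match runs across the start site.

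After filtering, 5698 cells remained, between 454 in each naïve library and 1000 in the WT intermediate library. The deposited tables held between 2885345 UMIs (KO naïve) and 9950713 UMIs (WT intermediate) per library. Cells were clustered without the 10 genes and without other genes of the disease-associated programme, and clusters were named from marker lists. Microglia-like cells (the TAM I class of the study in tumours) formed clusters 12 and 14, of which cluster 12 held 196 of the 199 naïve cells and cluster 14 held 156 of the 176 tumour-bearing cells. Macrophage-like cells (TAM II) formed clusters 11 and 13, with 450 cells of tumours. All 13 microglia markers had UMIs in the microglia-like cells of every library, summing in tumours to between 22010 and 27440 CPM (UMIs of a gene per 1000000 UMIs of the same class and library), and in naïve brain to 29860 (WT) and 33980 (KO). The WT intermediate library gave only 5 microglia-like cells and 17330 UMIs, and the WT late library stood apart in carrying 5368 CPM of oligodendrocyte markers in these cells, against 173 to 645 in those of the other tumour-bearing libraries. Across 28 pairs of libraries, 22 cell barcodes were shared, at most 2 in a pair. Acod1 was at 0 UMIs in naïve microglia-like cells of both genotypes, and in those of tumours it gave 64, 2 and 3 UMIs in the early, intermediate and late WT libraries and 0, 1 and 3 in those labelled KO. In macrophage-like cells the counts were 76, 3 and 1 (WT) and 27, 5 and 30 (KO). The methods place the cassette between exons 3 and 5. Where the counted 3′ end lies relative to it is not given in the sources used here, so these counts do not check the label.

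In microglia-like cells, 6 of the 10 genes were higher in the 6 tumour-bearing libraries than in the 2 naïve libraries (edgeR quasi-likelihood test on UMIs summed per library, adjusted p under 0.05), and 0 were lower. These were Spp1, Gpnmb, Cst7, Lpl, Axl and Clec7a. Among all 3272 genes tested, 9.87% were higher and 6.54% were lower. The median log2 fold change of the 10 genes was 3.17, against 0.02 over all genes tested. The calls rest on both naïve libraries. Without the KO naïve library 0 of the 10 genes were called, with 22 of 3541 genes in place of 537 of 3272, and without the WT naïve library 2 were, Gpnmb and Axl, with 107 genes. The lone naïve library is then assumed to vary like the other libraries.

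Among the secreted factors, Spp1 was at 0 UMIs in both naïve libraries. Its level in tumours was 994 (WT early), 1737 (KO early), 231 (WT intermediate), 101 (KO intermediate), 135 (WT late) and 12.65 CPM (KO late). Naïve and tumour-bearing libraries did not overlap, although the KO late value was a single UMI. Taken over the pooled cells, Spp1 was at least 101.3-fold higher in tumours, reckoned against 3 counts over the naïve group, a bound that was 61.6 without the WT early library and 59.5 or 41.8 without the WT or KO naïve library. The fitted log2 fold change was 9.36 ± 2.10 (SE, adjusted p = 0.00614) and, against a group at 0, depends on the prior count. Cst7 stood at 5.03 (WT) and 45.9 CPM (KO) in naïve cells and at 1351, 762, 0, 810, 113 and 304 in the tumours in the same order, so that only the 5 cells of the WT intermediate library lay below the naïve values. Its log2 fold change was 4.60 ± 1.04 (adjusted p = 0.00584), 29.4-fold over the pooled cells but 17.7-fold without the WT early and 18.6-fold without the WT naïve library. Without the KO naïve library only 1 naïve Cst7 UMI was left. Igf1 was at 35.2 and 0 CPM in naïve cells, at 226 and 155 in the early tumours and at 0, 13.5, 0 and 0 afterwards, and did not pass the test (2.54 ± 1.15, adjusted p = 0.140), except without the WT late library (0.0226).

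The lipid genes differed from each other. Lpl rose from 20.1 and 3.53 CPM in the naïve libraries to 328, 56.5, 231, 47.2, 102 and 25.3 in the tumours, with every tumour-bearing library above both naïve libraries (3.53 ± 0.67, adjusted p = 0.00188). Apoe was at 2516 and 1999 CPM in naïve cells and at 16790, 5775, 16040, 7374 and 8627 in 5 of the tumours, but at 569 in the KO late library. With all libraries the difference missed the threshold (1.82 ± 0.65, adjusted p = 0.0647). It passed without the KO late (adjusted p = 0.000771) or the WT late library (0.0324). Microglia-like cells of naïve brain also carried 1560 (WT) and 1784 (KO) CPM of astrocyte markers, against 57.7 to 316 in tumours, and naïve astrocyte-like cells held Apoe at 17470 and 20090; the part of astrocyte RNA in the naïve Apoe level was not tested.

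Among the receptors, Clec7a was at 126 and 134 CPM in naïve cells and at 2483, 1073, 519, 749, 45.1 and 278 in the tumours, lower than the naïve cells only in the WT late library (2.82 ± 0.91, adjusted p = 0.0416). Over the pooled cells Clec7a was 10.2-fold higher, and 4.20-fold without the WT early library. The Clec7a call was also lost without the WT early (adjusted p = 0.113), KO early (0.0692) or KO intermediate library (0.0614) and with DESeq2 (0.137). Axl went from 15.1 and 3.53 to 149, 42.4, 346, 121, 45.1 and 101, with no overlap (3.68 ± 0.74, adjusted p = 0.00257). Itgax, at 10.1 and 10.6 in naïve cells and 0 to 113 in tumours, missed the threshold (2.50 ± 0.92, adjusted p = 0.0688), and passed without the WT intermediate (0.0471), WT late (0.0250) or KO late library (0.0412). Trem2 stood at 1329 and 1589 CPM in naïve cells and between 965 and 1327 in tumours, in 6 of 6 libraries below both naïve values, but not past the test (−0.43 ± 0.28, adjusted p = 0.318).

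Gpnmb was at 0 UMIs in both naïve libraries and at 193, 395, 173, 40.5, 90.2 and 139 CPM in the tumours, at least 25.8-fold higher over the pooled cells, or 15.2 and 10.6 without the WT and the KO naïve library (7.59 ± 1.24, adjusted p = 0.000701). The tumour cells of the same libraries held Gpnmb at 827 to 1247 CPM and 97.8% of all Gpnmb UMIs of tumours. Oligodendrocyte-like cells, which are not known for the gene, moved in the same way, from 0 in both naïve libraries to between 9.80 and 215 in the tumours (6.48 ± 1.72, adjusted p = 0.0669). In cells thinned to 1500 UMIs, 10.2% of microglia-like cells of tumours had a Gpnmb UMI (95% exact binomial interval 6.18 to 15.7) against 11.6% of oligodendrocyte-like cells (7.69 to 16.5). By this share the microglia-like cells were not above oligodendrocyte-like cells, which gives the background for a UMI. Unthinned, the shares were 21.6% and 16.0%, and over the pooled cells of tumours Gpnmb was at 160.6 CPM in microglia-like and 66.2 in oligodendrocyte-like cells. The part of tumour-cell RNA in the rise of Gpnmb was not tested.

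**Figure D1:**
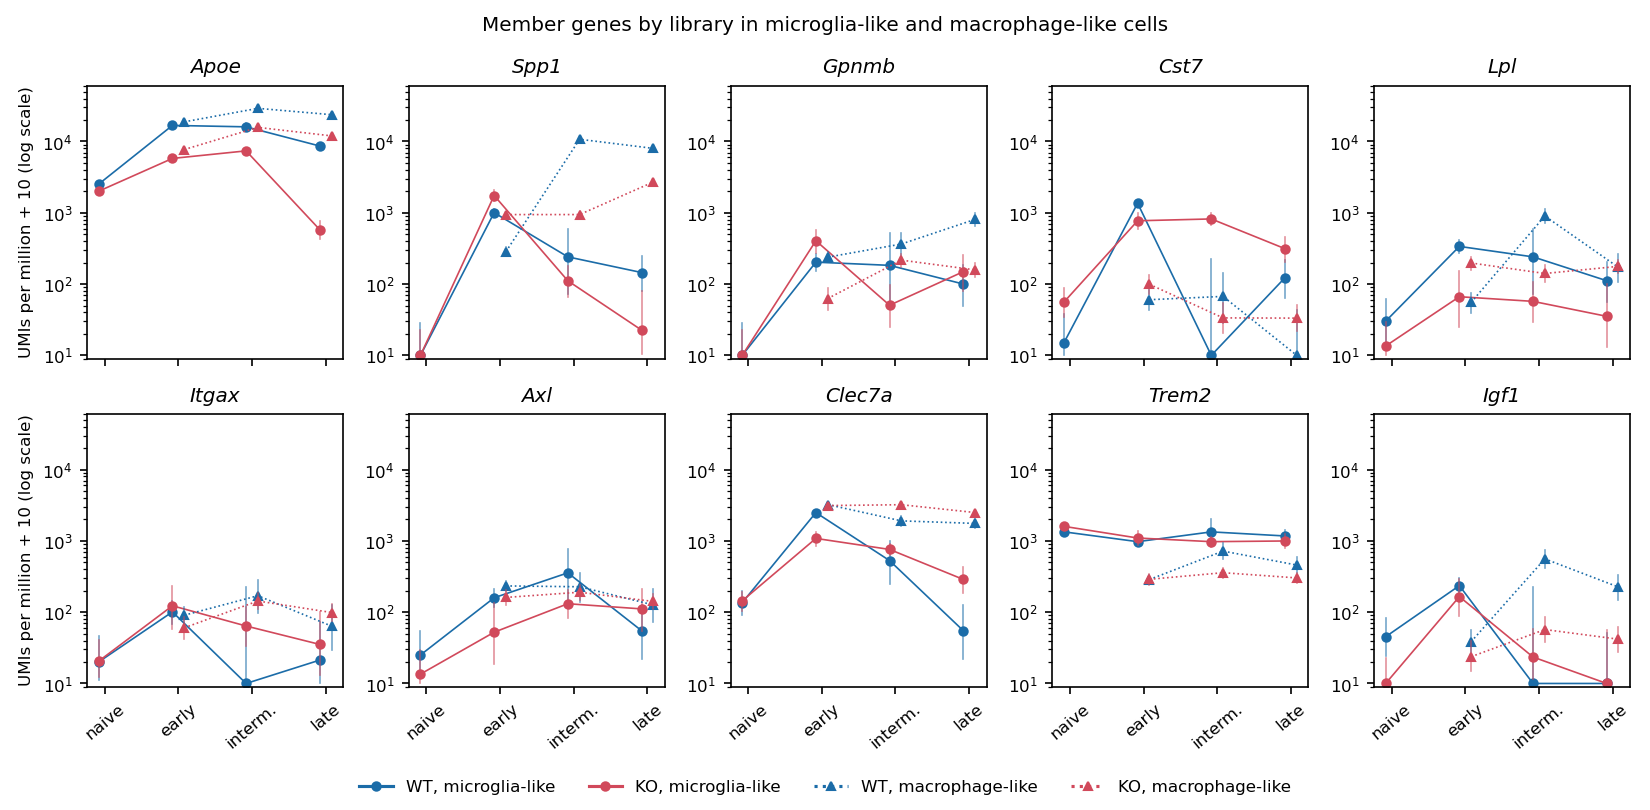
Level of each of the 10 genes (CPM plus 10, log scale) in microglia-like cells (circles, solid lines) and macrophage-like cells (triangles, dotted lines) of WT (blue) and KO (red) libraries, from naïve to late; each point is 1 library and bars are exact 95% Poisson intervals, which cover counting error only. Spp1 and Gpnmb start at 0 UMIs in naïve microglia-like cells, and Trem2 stays between 965 and 1589 CPM in microglia-like cells of all 8 libraries.

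Genes linked to the 10 by function gave the following counts in the same comparison. Of 24 other tested genes of the disease-associated programme, 14 were higher and 0 lower, with a median of 1.43. They included Lilrb4a, an inhibitory receptor (5.17 ± 0.48), Lgals3, which encodes galectin-3 (5.13 ± 0.87), Csf1 (3.41 ± 0.48), a growth factor of macrophages, and Cd52 (3.04 ± 0.41). Of 18 genes of resting microglia, 14 were lower and 0 higher (median −1.29), including P2ry12 (−1.83 ± 0.30), Selplg (−1.72 ± 0.31), Gpr34 (−1.60 ± 0.30) and P2ry13 (−1.58 ± 0.35). Of 7 cathepsins and related proteases, among them targets of cystatin F, 3 were higher: Ctsc (1.60 ± 0.38), Ctsb (1.45 ± 0.32) and Ctsz (1.27 ± 0.34). None of 9 tested signalling partners of Trem2 and Clec7a passed in either direction. Of 3 tested partners of Axl, Mertk, a related receptor for dying cells, was lower (−1.11 ± 0.29). Among 11 transcription factors, Cebpb, which is induced in inflammation, was higher (2.36 ± 0.45) and 4 were lower, among them Maf (−1.67 ± 0.32), Cebpa (−1.53 ± 0.30) and Sall1 (−1.39 ± 0.29), which marks resident microglia. Of 8 lipid-handling genes, 2 were higher, one of them Npc2 (1.24 ± 0.35), which moves cholesterol out of lysosomes. Of 11 genes known to respond to cell dissociation, 2 were higher and 3 lower, and their summed level was 14740 and 16570 CPM in naïve and 9291 to 16450 in tumour-bearing microglia-like cells.

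Markers of macrophages moved with the tumour-bearing group as well. The 14 markers summed to 126 (WT) and 70.6 CPM (KO) in naïve microglia-like cells and to 1500 to 3135 in those of tumours, with Il1b the most abundant in 5 libraries (808 to 1882) and Ifitm3 in the KO late library (848). Between 3 (WT intermediate) and 12 (WT late) of the 14 markers had UMIs in the tumour-bearing libraries. Chil3 was at 0 in all 6 of them. By the edgeR test, Plac8 (7.24 ± 1.63, adjusted p = 0.00621) and Ly6c2 (6.76 ± 2.24, adjusted p = 0.0481) were higher in tumours. Both were at 0 in the naïve libraries, and Ly6c2 also in the KO early and both intermediate libraries. Macrophage-like cells of the same tumours summed to 9674 to 17810 for these markers. Cst7 stood at 0 to 89.2 CPM in those cells, against 0 to 1351 in microglia-like cells. The part of macrophage RNA in these differences was not tested.

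The rise was spread unevenly over cells. After thinning to 1500 UMIs per cell, which left out no cell, a Cst7 UMI was found in 1.01% of naïve (95% exact binomial interval 0.122 to 3.58) and 32.4% of tumour-bearing microglia-like cells (25.5 to 39.8), against 0.444% of oligodendrocyte-like cells of tumours. For Clec7a the shares were 5.03% and 31.8%, against 2.67%. A Spp1 UMI was found in 0 of 199 naïve cells (exact interval for cells with a UMI up to 1.84%) and in 11.9% of tumour-bearing cells, against 2.22%. Axl was found in 1.51% and 13.1% (0% in oligodendrocyte-like cells) and Lpl in 1.01% and 9.09% (0.889%). The Apoe shares had overlapping intervals, 62.3% (55.2 to 69.1) and 61.9% (54.3 to 69.1), and a share of 69.3% in oligodendrocyte-like cells puts it at background by this measure, so that the Apoe levels rest on the UMIs per cell. Trem2 was found in 86.4% of naïve and 70.5% of tumour-bearing cells, against 0.889%.

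Counting the 10 genes per thinned cell, naïve microglia-like cells held a mean of 1.53 (WT) and 1.64 (KO), and tumour-bearing ones between 1.91 (KO late) and 3.05 (WT early). Of the naïve cells, 1 of 199 held 5 or more of them, and of the tumour-bearing cells 23 of 176. In the WT early library, the one with the most such cells (14 of 63), their median level of the resting microglia genes was 14090 CPM. It was 54470 in the other 49 cells of that library. The microglia markers stood at 22410 and 24290 and the macrophage markers at 2251 and 609. The microglia markers include C1qa, C1qb and C1qc, and C1qb was the most abundant of them in that library (6800 CPM). Over all tumour-bearing libraries the resting genes stood at 18260 and 48090. The cells with 5 or more genes were also deeper before thinning (median 4988 against 2834 UMIs) and had more macrophage marker UMIs (2586 against 844 CPM).

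**Figure D2:**
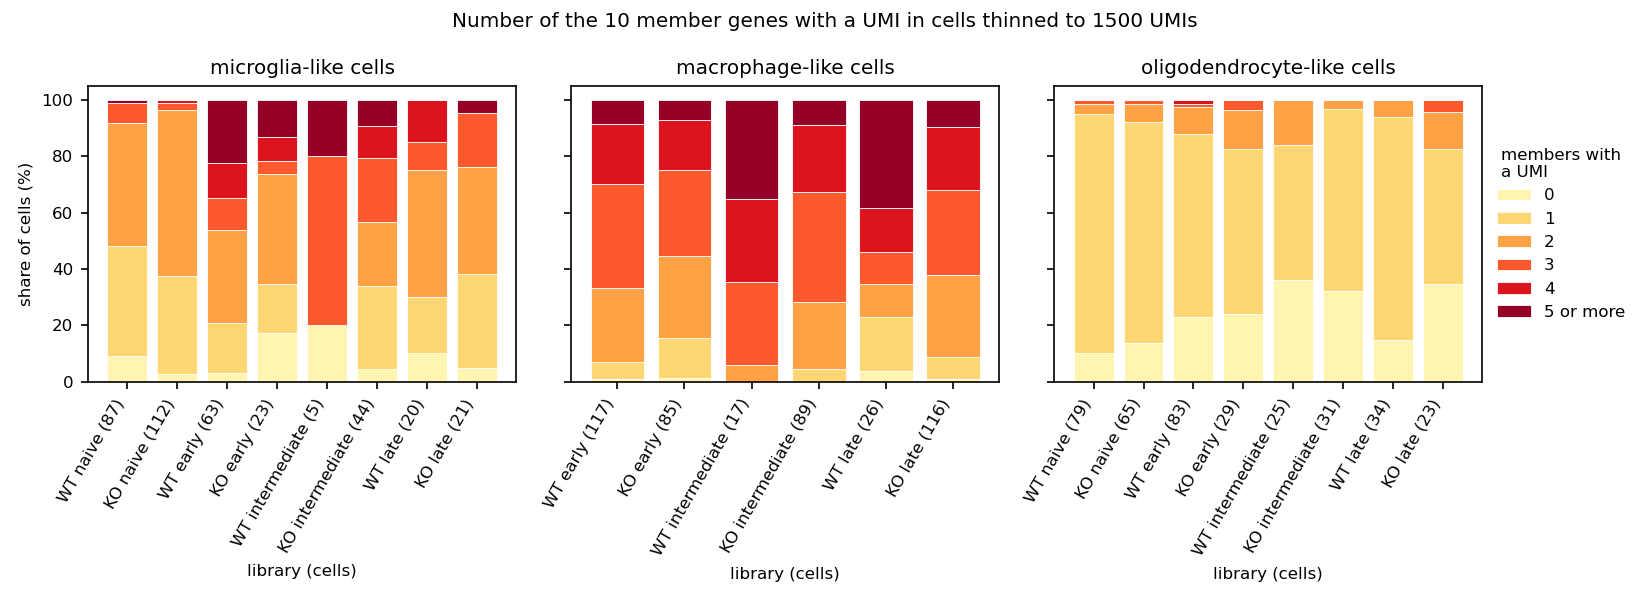
Share of cells (percent) by how many of the 10 genes had a UMI after thinning each cell to 1500 UMIs, for microglia-like, macrophage-like and oligodendrocyte-like cells of each library, with the number of cells in brackets. Cells with 5 or more genes make up 22.2% of WT early microglia-like cells, 1.15% of WT naïve ones and 35.3% and 38.5% of WT intermediate and WT late macrophage-like cells.

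Single cells held much of some sums. In the KO early library, 1 of 23 microglia-like cells held 113 of 123 Spp1 UMIs, 219 of 409 Apoe UMIs and 43 of 76 Clec7a UMIs. This cell, like the one richest in Spp1 in the WT late library, was among those taken out in the setting without doublets. In the WT early library, 1 of 63 cells held 133 of 273 Spp1 and 56 of 90 Lpl UMIs, and this cell had more macrophage than microglia marker UMIs (8816 against 7921 CPM). Without the cell richest in Spp1 in each tumour-bearing library, the Spp1 level fell to 525 (WT early), 152 (KO early), 134 (WT intermediate), 27.5 (KO intermediate), 50.8 (WT late) and 0 CPM (KO late). The number of genes called higher stayed at 6 of 10 without these cells, a setting chosen after the data were seen.

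Macrophage-like cells held more Apoe, Spp1 and Clec7a and less Cst7 and Trem2 than the microglia-like cells of the same tumours. Thus 3 of the 10 genes were higher and 2 lower, where 14.5% and 13.3% of all 3675 genes tested were higher and lower (edgeR, library as a block, 6 pairs). The median over the 10 genes was 0.51, against 0.06 over all genes.

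Clec7a was at 3221, 3118, 1898, 3205, 1747 and 2488 CPM in macrophage-like cells (WT early, KO early, WT intermediate, KO intermediate, WT late, KO late), above the paired microglia-like cells in 6 of 6 libraries (2.12 ± 0.37, adjusted p = 0.000167). A Clec7a UMI was found in 86.0% of thinned macrophage-like cells. Apoe was at 18840, 7694, 29140, 15750, 23750 and 11970, again higher in 6 of 6 (1.29 ± 0.36, adjusted p = 0.0105). Spp1 was at 275, 933, 10730, 934, 7990 and 2692, lower than in microglia-like cells in both early libraries and higher in the 4 later ones (2.73 ± 0.95, adjusted p = 0.0367). In the KO early library this order rests on 1 microglia-like cell, without which Spp1 was at 152 CPM there, below the 933 of macrophage-like cells. Without the microglia-like cell richest in Spp1 in each library the difference was 4.13 (adjusted p = 0.000253). No macrophage-like cell was left out there, which raises the difference by construction, so this value adds no support. In the WT intermediate library, 1 of 17 macrophage-like cells held 538 of 938 Spp1 UMIs. The Spp1 call was lost when the WT intermediate (adjusted p = 0.109), WT late (0.0857), KO late (0.141) or KO intermediate library (0.112) was left out.

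On the other side, Cst7 was at 50.4, 89.2, 57.2, 23.6, 0 and 23.3 CPM in macrophage-like cells, below the paired microglia-like cells in 5 of 6 libraries (−4.00 ± 0.38, adjusted p = 1.30e-07). The exception was the WT intermediate library with its 5 microglia-like cells. Trem2 was at 277, 279, 709, 348, 448 and 292, below in 6 of 6 (−1.56 ± 0.18, adjusted p = 1.90e-06). Trem2 had a UMI in 32.9% and Cst7 in 2.89% of thinned macrophage-like cells. The remaining genes did not pass with all libraries in. Gpnmb was at 52.6 to 797 (0.52 ± 0.47, adjusted p = 0.449), Lpl at 45.3 to 892 (0.37 ± 0.52, 0.640), Itgax at 50.3 to 160 (0.49 ± 0.38, 0.370), Axl at 116 to 223 (0.61 ± 0.25, 0.0750) and Igf1 at 13.7 to 549 (−0.25 ± 0.74, 0.839). Leaving out 1 library made 3 of these pass, namely Gpnmb without KO early (0.0201), Lpl without WT early (0.000773) and Axl without WT intermediate (0.0304).

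Other genes of the disease-associated programme were divided too, with 10 of 24 higher and 8 lower (median −0.09). Lyz2, which encodes lysozyme (3.54 ± 0.21), and the chemokine gene Ccl6 (3.38 ± 0.33) were higher in macrophage-like cells, and Serpine2 (−4.27 ± 0.38) and Csf1 (−3.30 ± 0.38) lower. All 3 tested partners of Axl were lower: the ligands Pros1 (−3.66 ± 0.33) and Gas6 (−2.08 ± 0.37), and Mertk (−2.06 ± 0.21). Among 4 receptors of osteopontin, Itga4 (2.81 ± 0.39) and Cd44 (1.63 ± 0.30) were higher and Itgb5 (−1.86 ± 0.21) lower. Of the 7 cathepsins and related proteases, Ctsc was higher (0.71 ± 0.17) and Ctsl (−1.25 ± 0.21), Lgmn (−0.85 ± 0.19) and Ctsz (−0.72 ± 0.17) lower. Among 10 signalling partners of Trem2 and Clec7a, 2 were higher, Malt1 (1.97 ± 0.30) and Syk (0.84 ± 0.28), the kinase that both receptors use, and 3 lower, among them Inpp5d (−1.77 ± 0.24), a phosphatase that restrains this signal. The marker genes that named the 2 classes are not given as results here.

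**Figure D3:**
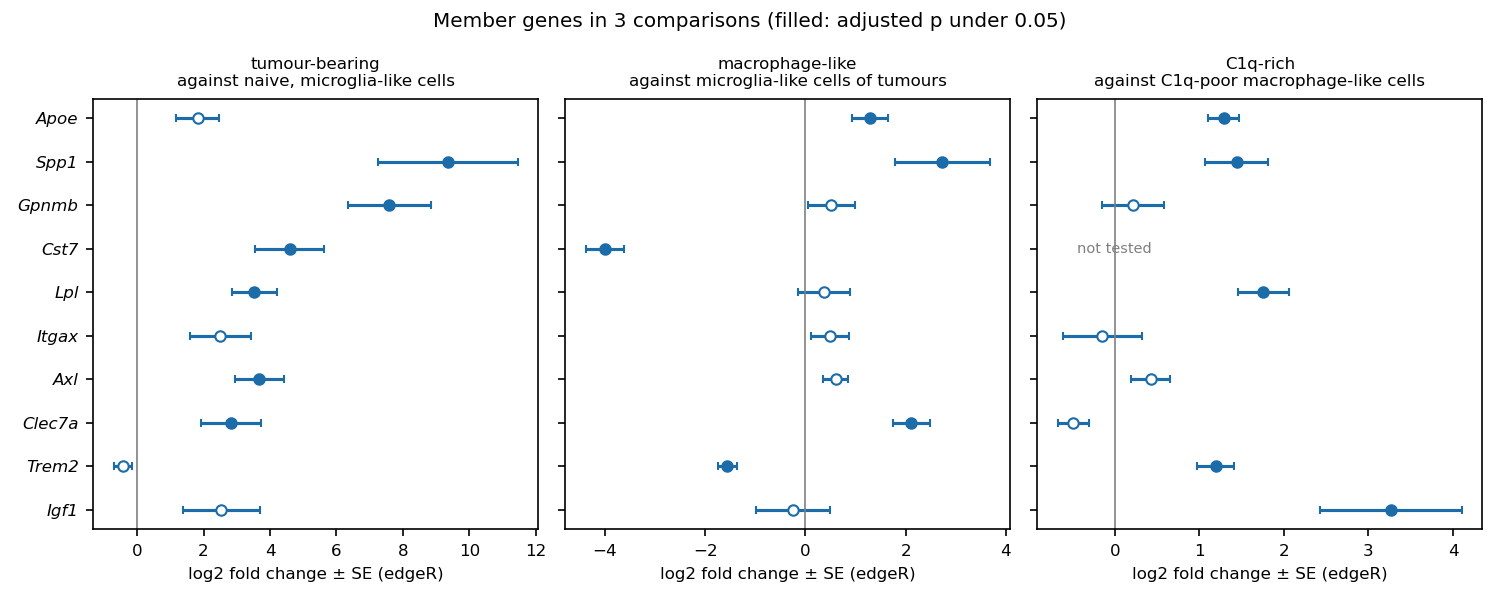
Log2 fold changes (edgeR, bars ± SE) of the 10 genes in 3 comparisons: tumour-bearing against naïve microglia-like cells (8 libraries), macrophage-like against microglia-like cells (6 pairs), and C1q-rich against C1q-poor macrophage-like cells (6 pairs); filled points have an adjusted p under 0.05. Filled points number 6, 5 and 5 of the 10 genes, and Cst7 was not tested in the last comparison.

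Macrophage-like cells were also divided by their own content of complement C1q, a product of mature tissue macrophages, at 0.2% of UMIs from C1qa, C1qb and C1qc together. This is a range of cells and not a cell type. Between 12 and 93 cells per tumour were C1q-rich and between 5 and 29 C1q-poor. C1q-rich cells held more Apoe, Spp1, Lpl, Trem2 and Igf1, 5 of the 9 genes that could be tested, and 0 genes of the list were lower, where 4.2% of 2263 genes tested were higher and 3.05% lower.

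Trem2 was at 306, 319, 832, 364, 530 and 316 CPM in C1q-rich cells (order of libraries as before) and at 79.0, 167, 225, 232, 247 and 170.5 in C1q-poor cells (1.20 ± 0.22, adjusted p = 0.00300). Lpl was at 52.0, 229, 990, 146, 189 and 192 against 0, 70.3, 507, 21.1, 92.7 and 39.3 (1.76 ± 0.30, adjusted p = 0.00216), and Apoe at 20160, 9122, 31150, 16880, 29490 and 13490 against 9770, 3638, 21230, 7791, 9673 and 4091 (1.29 ± 0.18, adjusted p = 0.000532). For these 3 genes the C1q-rich cells were higher in 6 of 6 libraries. Igf1 was found in C1q-poor cells of the WT early library alone (39.5 against 26.9 in C1q-rich cells) and reached 689 and 303 in the C1q-rich cells of the WT intermediate and WT late libraries (3.27 ± 0.84, adjusted p = 0.0260). Spp1 was higher in 5 of 6 libraries (1.44 ± 0.37, adjusted p = 0.0277), the KO late library being lower with 2612 against 3108. The C1q-poor cells of that library stood apart, with 2610 CPM of mural or fibroblast markers (155 to 255 in the other 5 libraries, most of it Mgp in every library), 5416 of oligodendrocyte markers (126 to 556) and 1180 of endothelial markers (56.3 to 247). Of the 2610, 2505 was Mgp, which is also a leading gene of the tumour cell cluster. The part of RNA of other cell types in the Spp1 level was not tested, and without the KO late library the difference in Spp1 was 1.84 (adjusted p = 0.00861). The Spp1 call was lost without the WT intermediate (adjusted p = 0.0908) or KO intermediate library (0.0799) and at 0.5% of UMIs (0.207), and the Igf1 call without the KO late (0.0532) or KO intermediate library (0.0609) and with DESeq2 (0.0775). Clec7a leaned the other way in 5 of 6 libraries without passing the test (−0.49 ± 0.19, adjusted p = 0.134), except without the KO late library (0.0398).

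In the same comparison, 7 of 21 other genes of the disease-associated programme were higher and 0 lower, among them Timp2 (2.78 ± 0.32), the lysosomal membrane gene Cd63 (1.96 ± 0.25), and the protease genes Ctsd (1.38 ± 0.24) and Ctsb (1.03 ± 0.19). Of 7 cathepsins and related proteases, 5 were higher, including Lgmn (1.37 ± 0.19) and Ctsz (0.82 ± 0.15). Abca1, which exports cholesterol to Apoe, was higher (2.96 ± 0.54), and so was Mertk (1.47 ± 0.42). Of 13 macrophage markers, 7 were lower, including the monocyte genes Chil3 (−2.35 ± 0.48) and Plac8 (−2.08 ± 0.19). Under Leiden clustering, 33 C1q-poor cells and 1 C1q-rich cell went to the dendritic-like class, and 0 of the 10 genes were then called by edgeR (Apoe 0.79, adjusted p = 0.0504; Lpl 1.48, 0.0814; Trem2 0.53, 0.380; Spp1 0.71, 0.400). Of the 5 markers of border macrophages, 3 were higher in C1q-rich cells, Pf4 (2.28 ± 0.54), Ms4a7 (1.87 ± 0.33) and Mrc1 (1.63 ± 0.39), and Clec10a was lower (−2.08 ± 0.51), genes named here after their values were seen. Their sum was higher in C1q-rich cells in 5 of 6 libraries, at 1370 to 2951 against 281 to 989 CPM, and lower in the WT intermediate library (4319 against 5913), and their part in the difference was not tested. The dendritic marker Ccl17 was also lower in C1q-rich cells (−3.81), and the part of dendritic cells in the difference was not tested.

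**Figure D4:**
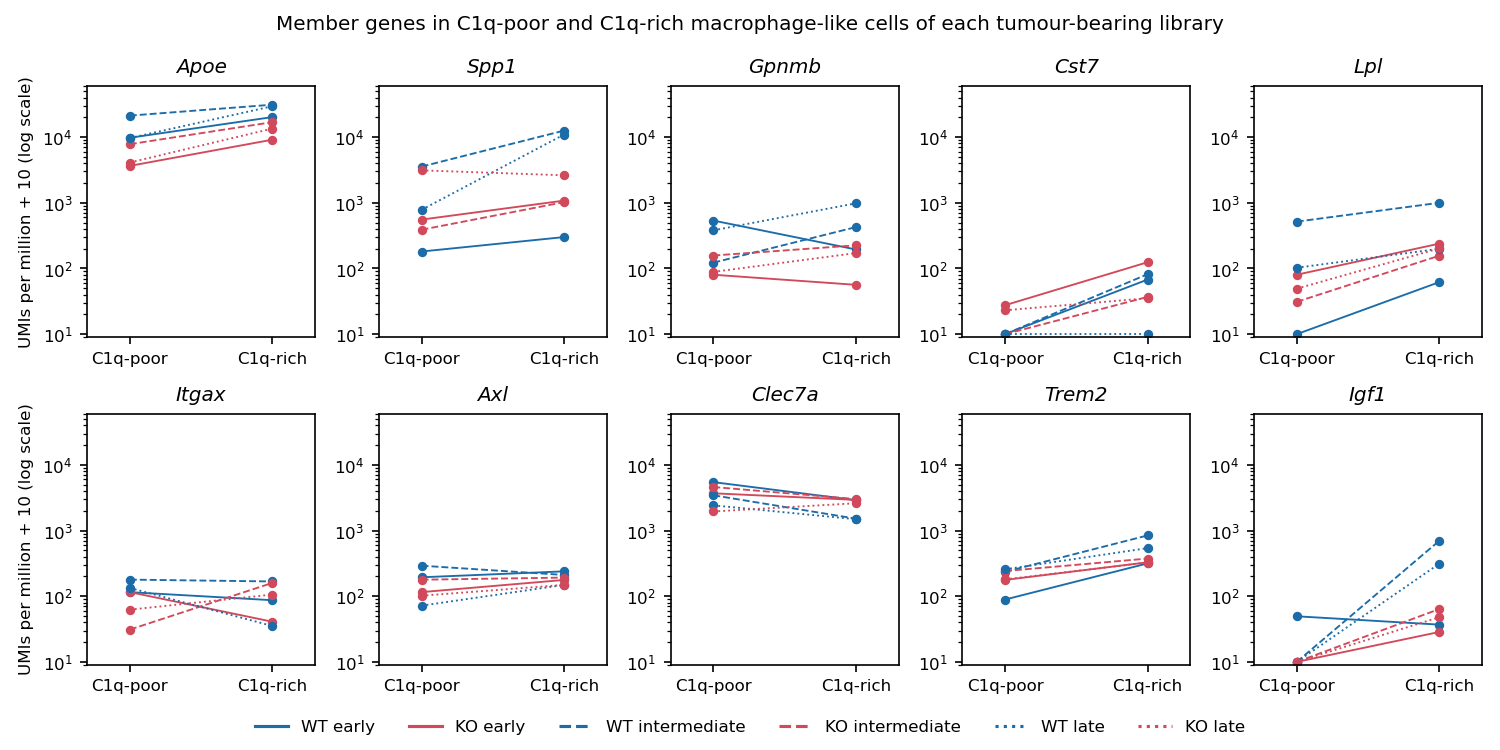
Level of each of the 10 genes (CPM plus 10, log scale) in the C1q-poor and C1q-rich macrophage-like cells of each tumour-bearing library, joined by a line per library (WT blue, KO red; solid early, dashed intermediate, dotted late). The lines of Apoe, Lpl and Trem2 climb in 6 of 6 libraries.

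The early and the late stage were compared within each of the 2 classes. In microglia-like cells, late against early, Spp1 was lower (−4.42 ± 0.70, adjusted p = 0.0227) and was the only gene called of 1917 tested, 0.0522% of them. The level fell in both genotypes, from 994 to 135 (WT) and from 1737 to 12.65 CPM (KO). Without the cell richest in Spp1 in each library, most of the KO early level was gone. Spp1 then went from 525 to 50.8 (WT) and from 152 to 0 CPM (KO). Of the 9 genes that could be tested, 7 had an unadjusted p under 0.05, all of them lower late, where 4.70% of all genes did. With the same cells left out, Lpl went from 127 to 114 in WT and from 60.9 to 26.55 in KO. In KO libraries Gpnmb then went from 168 to 146, Clec7a from 503 to 292 and Cst7 from 487.5 to 292. Apoe there went from 2894 to 597 and Igf1 from 30.5 to 0. Clec7a went from 2483 to 45.1 (WT) and from 1073 to 278 (KO) (−3.77 ± 0.75, adjusted p = 0.0780), and Cst7 from 1351 to 113 and from 762 to 304 (−2.82 ± 0.80, adjusted p = 0.514). Igf1 went from 226 and 155 to 0 in both genotypes (adjusted p = 0.108), and Apoe from 16790 to 8627 and from 5775 to 569 (−2.03 ± 0.59, adjusted p = 0.536). The 5 markers of border macrophages in these cells also fell in sum, from 214.8 to 22.55 (WT) and from 56.48 to 12.65 CPM (KO). Their part in the stage differences was not tested. Trem2 stayed at 965 and 1087 early and 1162 and 987 late (−0.06 ± 0.43, adjusted p = 0.999). Axl was lower late in WT and higher late in KO (−0.55 ± 0.75, adjusted p = 0.9985). The late libraries held 20 and 21 such cells. The Spp1 call was lost with doublets removed (adjusted p = 0.0836), with cells of at least 500 genes (0.574) and without the KO late library (0.0997), while 5 genes were called without the 5 cells of the WT intermediate library: Spp1, Clec7a (−3.70), Cst7 (−2.53), Igf1 (−7.71) and Apoe (−2.26).

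In macrophage-like cells, late against early, 0 of 6468 genes and 0 of the 10 genes were called by edgeR (0%, with 321 genes at an unadjusted p under 0.05), and DESeq2 called 1 gene, not among the 10. Spp1 went from 275 to 7990 in WT and from 933 to 2692 in KO libraries (2.48 ± 0.80, adjusted p = 0.865), and Gpnmb from 228 to 797 and from 52.6 to 148 (1.52 ± 0.42, adjusted p = 0.865). Igf1 went from 28.6 to 215 and from 13.7 to 31.8 (2.25 ± 0.56, adjusted p = 0.697). Cst7 went the other way, from 50.4 to 0 and from 89.2 to 23.3 (−2.17 ± 0.69, adjusted p = 0.865). These 4 of the 10 genes had an unadjusted p under 0.05, where 4.96% of all genes did. Clec7a (−0.73 ± 0.36) and Axl (−0.63 ± 0.38) were also lower late in both genotypes, each at an adjusted p of 0.998. Spp1 passed without the KO early (adjusted p = 1.60e-14), WT intermediate (0.0104) or KO intermediate library (0.00320), and Igf1 and Lpl without KO early, the WT early library then being the lone early one.

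The difference between the 2 stage effects was tested directly, with the interaction of class and stage and library as a block, a test chosen after the data were seen. The signed log2 change from early to late was higher in macrophage-like than in microglia-like cells for Spp1 (7.67 ± 0.63, adjusted p = 6.36e-12), Clec7a (3.02 ± 0.55, adjusted p = 0.00214), Apoe (2.59 ± 0.57, adjusted p = 0.0238) and Igf1 (10.94 ± 1.44, adjusted p = 3.44e-06), 4 of the 7 genes called among 3675 (0.19%). The microglia-like change was negative for all 4 and the macrophage-like change for Clec7a alone (−0.73 against −3.77). The Igf1 value depends on the prior count, since late microglia-like cells were at 0. The interaction did not pass for the other 6 genes, among them Cst7 (0.15 ± 1.15), Axl (−0.03 ± 0.74) and Trem2 (0.36 ± 0.45), each at an adjusted p of 1. Of the 10 genes, 4 were also called without the microglia-like cell richest in Spp1 of each library, and DESeq2 called Spp1 and Igf1. The Apoe call was lost without the KO late (adjusted p = 0.671), WT early (0.252), KO early (0.0558) or KO intermediate library (0.130), and the Clec7a call without the WT late (0.614) or WT early library (0.245).

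The question of the genotype was open to 3 KO against 3 WT libraries, 1 pair per stage. In macrophage-like cells, Igf1 was lower in KO (−2.67 ± 0.42, adjusted p = 0.0287), 1 of 4 genes called of 6468 (0.0618%). Its levels were 28.6 (WT) and 13.7 (KO) at the early stage, 549 and 47.1 at the intermediate stage and 215 and 31.8 at the late stage, lower in KO in 3 of 3 pairs. The WT sums held 17, 48 and 24 Igf1 UMIs. In the WT intermediate library 5 of 17 macrophage-like cells had an Igf1 UMI, and 1 cell held 21 of the 48. In the WT late library 7 of 26 had one, and 1 cell held 11 of the 24. The call was lost with cells of at least 500 genes (adjusted p = 0.0603) and without the intermediate (0.318) or the late pair (0.674), and DESeq2 gave it no adjusted p. The 5 measured markers of border macrophages (Mrc1, Pf4, F13a1, Ms4a7 and Clec10a) were also lower in KO in 3 of 3 pairs in sum, at 1394 against 1087, 4643 against 1549 and 2383 against 1590 CPM, and 0 of the 5 passed the test. Their most abundant gene was Ms4a7, Mrc1 or Pf4, only Clec10a in the WT intermediate library was at 0, and their part in the Igf1 difference was not tested. Among the 6468 genes, 260 had an unadjusted p under 0.05. Gpnmb and Apoe were lower in KO in 3 of 3 pairs without passing (−1.76 ± 0.35, adjusted p = 0.116, and −1.02 ± 0.30, adjusted p = 0.522). Gpnmb passed without the early (0.00513) or the intermediate pair (0.00665) and with DESeq2 (0.0240), and Spp1 without the early pair (6.16e-07). Tumour-cell markers in these macrophage-like cells summed to 450, 1246 and 1012 CPM in the WT and 517, 513 and 549 in the KO libraries, and their part in the Gpnmb difference was not tested.

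In microglia-like cells of tumours, 0 of 1917 genes were called between KO and WT by edgeR (0%, with 77 genes at an unadjusted p under 0.05), and DESeq2 called 1, Apoe. Apoe and Lpl were lower in KO in 3 of 3 pairs (−2.13 ± 0.50 and −2.32 ± 0.55, adjusted p = 0.307 for both), and Apoe passed without the early pair (0.00900). Apoe stood at 16790 against 5775, 16040 against 7374 and 8627 against 569, and Lpl at 328 against 56.5, 231 against 47.2 and 102 against 25.3. Without the cell richest in Spp1 in each library, Lpl stood at 127 against 60.9, 134 against 48.1 and 114 against 26.55. Apoe then stood at 15930 against 2894, 18170 against 6479 and 8337 against 597. In naïve microglia-like cells, with 1 library per genotype and no test, Apoe was at 2516 (WT) and 1999 (KO), with exact 95% Poisson intervals of 2301 to 2747 and 1838 to 2171. Beside the sex of the mice, the sums differed in cells, with 5 to 63 in WT and 21 to 44 in KO.

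Outside the microglia-like and macrophage-like cells, most of the genes were low or traced to other sources. Of the UMIs of tumour-bearing libraries, tumour cells held 81.0% of those of Axl and 55.3% of those of Igf1, at levels of 58.2 to 86.85 and 2.30 to 12.95 CPM, below macrophage-like cells (116 to 223 and 13.7 to 549). Macrophage-like cells held 80.5% of Clec7a and 63.4% of Apoe UMIs. Microglia-like cells held 60.4% of Cst7 UMIs and 46.0% of Trem2 UMIs. Lymphocyte-like cells were the other source of Cst7 (22.4%), at 421 ± 381 (SD, n = 5 libraries), a mean that did not differ beyond its spread from the 557 ± 512 (SD, n = 6) of microglia-like cells. Trem2 in contrast stood at 1082 ± 144 (SD, n = 6) in microglia-like and 392 ± 168 in macrophage-like cells, and at or below 10.6 on average in all other classes of tumours.

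Among the classes with at least 5 cells, Spp1 had its highest mean level in mural or fibroblast-like cells (8466 ± 4869, SD, n = 4 libraries), followed by macrophage-like cells (3926 ± 4372, SD, n = 6), which did not differ beyond the spread. In naïve brain these mural cells held 90.7% of Spp1 UMIs, at 123 (WT) and 780.5 (KO) CPM. The lymphocyte mean of Spp1, 2737, includes a cell of the WT intermediate library with 489 of the 532 UMIs of its class there. Clec7a in dendritic-like cells was at 399 (KO early) and 1523 (KO intermediate), the libraries with at least 5 such cells.

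Tumour-bearing against naïve comparisons were also run in brain cell types that are not myeloid. In astrocyte-like cells Apoe, the only gene of the 10 with enough counts, did not pass (−0.30 ± 0.25, adjusted p = 0.856; 1.14% of 616 genes were called, 7 genes by edgeR and 11 by DESeq2), at 17470 and 20090 in naïve and 14130 to 20830 in tumour-bearing libraries with at least 5 cells. In oligodendrocyte-like cells Apoe was lower in tumours in 6 of 6 libraries, at 1032 to 1883 against 3679 and 2988 (−1.19 ± 0.22, adjusted p = 0.00817), with 2.43% of 2634 genes called, and the call was lost without the WT (adjusted p = 0.107) or KO naïve library (0.137). In endothelial-like cells Apoe stood at 490 to 1005 against 952 and 1534 (−0.92 ± 0.29, adjusted p = 0.0727), with 5.01% of 1158 genes called.

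**Figure D5:**
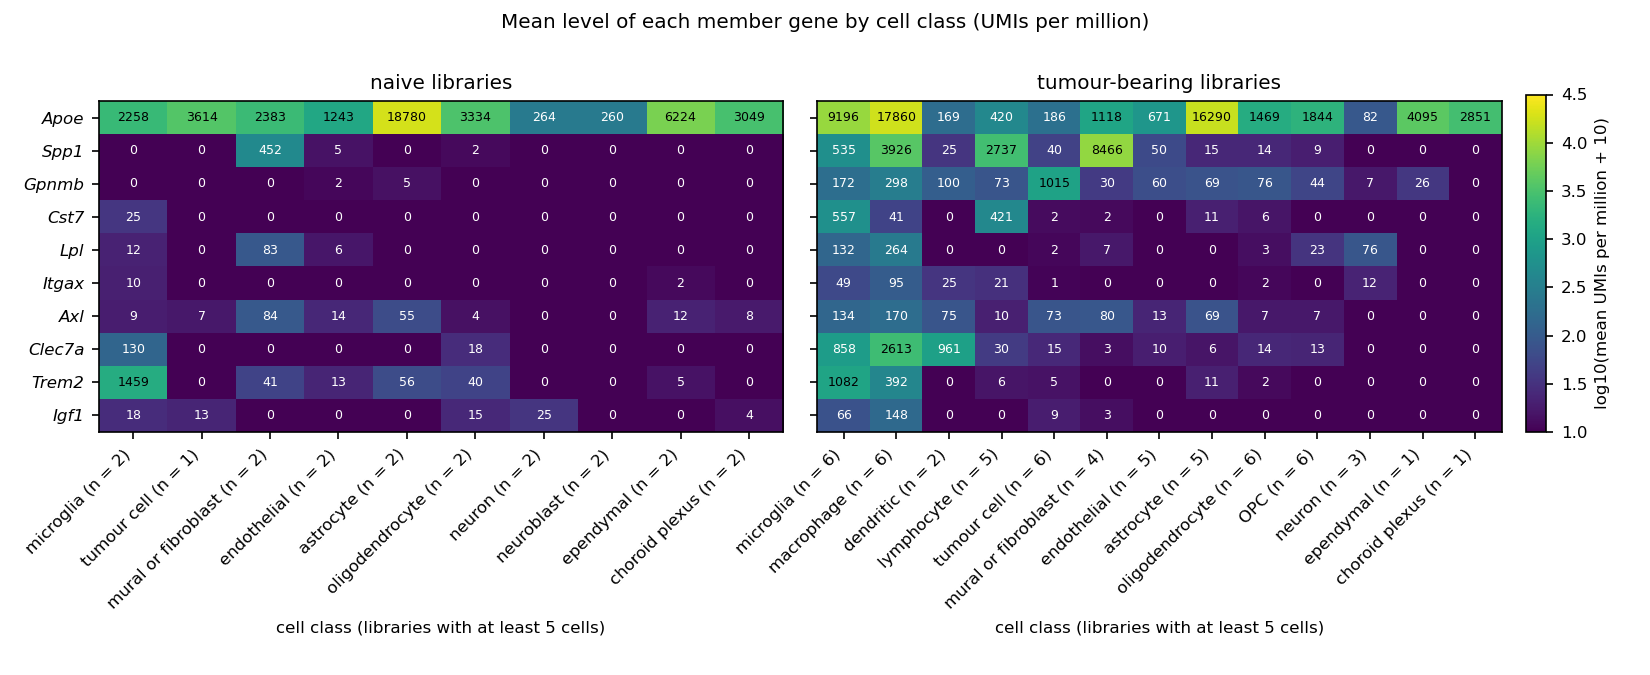
Mean level of the 10 genes (CPM, printed in each field and coloured on a log10 scale after adding 10) by cell class in naïve (left) and tumour-bearing libraries (right), over the libraries with at least 5 cells of the class (n in brackets). Apoe is highest in astrocyte-like cells of naïve brain, Gpnmb in tumour cells (1015), Cst7 and Trem2 in microglia-like cells, and Spp1 in mural or fibroblast-like cells.

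Over the 75 sums of a library and a class, the genes whose levels were most like each of the 10 were found among 8597 genes by Pearson's r of log2(CPM + 10), as a description without a test, since classes and libraries are shared between the points. Trem2 was most like Cd300c2 (r = 0.955) and Csf1r (0.949), the receptor that microglia need to live. Clec7a was most like Bcl2a1a (0.929) and Il1b (0.916), and Itgax most like the oxidase gene Cybb (0.841) and Fcgr4 (0.834). Cst7 was most like Gm1966 (0.819) and Rac2 (0.807), Igf1 most like Ms4a7 (0.809) and Cybb (0.712), and Lpl most like C3ar1 and Ccl9 (both 0.762). Apoe was most like Tpp1 (0.755) and Abca1 (0.730), Spp1 most like Ccl7 (0.751) and Gm14005 (0.724), and Axl most like Ifi204 (0.714) and Grn (0.699). Gpnmb was most like Lect1 (0.755) and Col9a1 (0.753), both among the leading genes of the tumour cell cluster. Within the list, the highest value was that of Itgax and Clec7a (0.803).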

How the data were processed

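The authors deposited 1 table of UMI counts per gene and barcode for each of the 8 libraries, raw and not normalised; the submitters' processing notes name bcl2fastq 2.0, STAR and GRCm38/mm10. As in the study, each library was limited to its 1000 deepest barcodes, and cells with at least 1000 genes and genes in at least 30 cells were retained. Cells were clustered by tSNE (Rtsne 0.17) and HDBSCAN without the 10 genes. Scrublet marked 39 of 5698 cells, which were kept in the main analysis. The setting without doublets took out 235 cells, since in the 5 libraries with the fewest marked cells those with the highest scores were taken out in their place. Counts were summed per library and class (at least 5 cells) and tested with edgeR 4.0.16 (quasi-likelihood, TMM, Benjamini-Hochberg over all genes tested). Standard errors are the log2 fold change divided by the root of the F statistic. The blocks were library, stage or genotype as the comparison allowed. DESeq2 1.42.0 and the other settings were alternatives. On simulated counts with a log2 change of 2, 67.5% (late against early microglia-like cells) to 99% (endothelial-like cells) of 200 changed genes were recovered. Levels are CPM, the UMIs of a gene per 1000000 UMIs of the class in a library, and Poisson and binomial intervals cover counting error only. Gene positions are from GENCODE on GRCm38. Besides the 10 genes, at most 4 called genes of a list are named, by size of change among those with 1 direction in all libraries or pairs, and from lists of under 8 genes any member. The members, lists and tests were chosen with earlier results of these data known. P-values measure the spread between libraries of 1 mouse, or 2 for naïve libraries.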

Additional observations from a re-analysis of the deposited data

Results flagged for a closer look

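Apoe in microglia-like cells of the KO late library, at 569 CPM, lay far below the other 5 tumour-bearing libraries (5775 to 16790), the only such gap in 20 groups examined (the 10 genes in each of the 2 myeloid classes). Chance gives such a gap in about 1 in 20 groups. It was 0.683 of the range on a log2 scale, and 0.460, under the critical 0.625, without the cell richest in Spp1 in each library (a setting chosen after the data were seen), when KO early stood at 2894 and KO late at 597 CPM. The change from early to late differed between macrophage-like and microglia-like cells for Spp1 (7.67), Igf1 (10.94), Clec7a (3.02) and Apoe (2.59 on the log2 scale) by an interaction test chosen after the data were seen, with 2 libraries per stage.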

How the results depend on the processing

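No tested result reversed under the settings tried, although the order of Spp1 between the classes in the KO early library turned without 1 cell. No pairing by replicate number was possible because the labels give 1 library per group; libraries and stages stood as blocks in the tests. The number of the 10 genes called moved as follows. Tumour-bearing against naïve microglia-like cells gave 0 to 9 over the libraries left out. KO against WT microglia-like cells gave 1 with DESeq2 and 1 with at least 10 cells per sum (0 to 1 over the stages left out). KO against WT macrophage-like cells gave 2 with Leiden, 0 with 500 genes per cell and 2 with no filter on low counts (0 to 4), where all genes called went from 4 to 14, 4 and 53. Late against early microglia-like cells gave 2 with 500 genes, 0 with doublets removed, 2 with DESeq2, 4 with no filter and 5 with at least 10 cells (1 to 5), where all genes went from 1 to 3, 0, 3, 12 and 19. Late against early macrophage-like cells gave 1 with no filter (0 to 3, with 0 to 88 genes). Oligodendrocyte-like cells gave 2 with 500 genes, 2 with DESeq2 and 2 with no filter (0 to 2, with 3 to 85 genes beside 64). Endothelial-like cells gave 2 with no filter. C1q-rich against C1q-poor cells gave 0 with Leiden (47 genes beside 164) and 3 with at least 10 cells (3 to 5). The interaction gave 2 with DESeq2 (3 to 6). Macrophage-like against microglia-like cells gave 4 to 6 over the libraries left out. The cause of these shifts was not tested. Unthinned, shares with a UMI were, in tumour-bearing microglia-like cells, Apoe 71.0%, Gpnmb 21.6%, Cst7 40.3%, Lpl 19.3%, Itgax 15.9%, Axl 27.3%, Clec7a 43.2% and Trem2 90.3% (naïve 94.0%); in macrophage-like cells, Spp1 38.2%, Gpnmb 25.8%, Cst7 5.78%, Lpl 24.2%, Itgax 25.1%, Axl 46.2%, Clec7a 93.6%, Trem2 56.4% and Igf1 8.67%; and for Apoe in oligodendrocyte-like cells 93.75% (naïve) and 82.2%. Sums of 5 to 23 cells limit the KO early, WT intermediate and late microglia-like values.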

Other observations

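The naïve libraries held 9 cells in the tumour cell class, with 0 Gpnmb UMIs among 213338 and 202 CPM of tumour cell markers, against 4832 in the tumour cells of tumours.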
